A study of Mus musculus with 23 samples.

Results

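Translation efficiency (TE) was compared between mouse bone marrow-derived macrophages (BMDMs) given LPS for 4 h and BMDMs at 0 h, which had no LPS. The comparison covers the 4621 genes, of 6397 in the deposited table, whose RPKM averaged 10 or more across the 10 Ribo-seq libraries and likewise across the 10 RNA-seq libraries. The cells came from adult C57BL/6 mice and were grown from bone marrow by published protocols. LPS, the bacterial outer-membrane lipid that macrophages sense through the receptor Tlr4, was used at 100 ng/ml. At each time point there were 2 biological replicates, A and B, and each culture gave 1 Ribo-seq and 1 RNA-seq library. Whether A and B came from separate animals is not stated in the labels, so the p-values measure only the spread between these cultures. In such bulk samples fewer cells of a type and less RNA per cell cannot be told apart.

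Ribo-seq sequences the short mRNA fragments that a translating ribosome shields from nuclease (ribosome-protected fragments, RPFs), and RNA-seq the mRNA itself. Their ratio, the apparent TE, follows how densely ribosomes load an mRNA, so a gene can make more protein by having more mRNA, by a higher TE or by both. In activated macrophages most change runs through mRNA levels, but some mRNAs are known for translational control. The mRNAs of ribosomal proteins and several translation factors begin with a 5′ terminal oligopyrimidine (TOP) tract, a C followed by a run of C and T, through which the kinase mTOR raises or lowers their translation as a group. Several cytokine mRNAs carry AU-rich elements bound by Zfp36, a protein that represses its targets.

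TE was taken per culture as (RPF RPKM + 1)/(RNA RPKM + 1). Differences are on the log2 scale as 4 h minus 0 h. The added 1 RPKM draws the TE ratio of low values toward 1, which can shrink or enlarge a difference. The difference of Il12b, for example, was 0.24 with 0.1 RPKM added, 0.78 with 1 and 1.06 with 5. RPKM is scaled to the reads of each library, so values are shares of the sequenced RNA and a change of all genes at once cannot be seen.

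TOP tracts are shown first, because the 2 lists of mRNAs of this class had the highest median TE differences of all lists. Of 81 tested cytosolic ribosomal protein genes 60 had a start in the RefSeq promoter table (GRCm38.p6), and 35 of these (58.3%) held a C followed by at least 4 C or T, on the transcribed strand, within 15 bases of the start. The same run was found near 37.5% of the starts of tested genes outside the TOP lists and near 36.4% of all 27025 RefSeq starts, so it is common and annotated starts can lie some bases off. The windows of 30 bases, read 5′ to 3′ with 15 before the start and 15 from it on, have the longest run in capitals. It spans the start in Rps6, Rack1 and Eef1a1, and begins at base 7 of the transcript in Rpl39.
Rps6, a ribosomal protein of the small subunit, chr4:86857353-86857382, minus strand: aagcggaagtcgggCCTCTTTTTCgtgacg
Rpl39, a ribosomal protein of the large subunit, chrX:37085208-37085237, minus strand: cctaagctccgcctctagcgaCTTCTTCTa
Rack1, a scaffold on the small subunit, chr11:48800345-48800374, plus strand: cggaggccgCTCTTTCTTTTTCTCCacagg
Eef1a1, the elongation factor that brings tRNA to the ribosome, chr9:78481710-78481739, minus strand: gctggctccgCCCTCTTCCCgagggtgggg
Among the ribosomal protein genes the median TE difference was 0.68 for the 35 with the run and 0.60 for the 25 without it. In the other TOP mRNAs, 5 of 10 starts held the run, and the medians were 0.72 with and 0.83 without it. The run was about as common in cytokine genes (9 of 18 starts), mitochondrial ribosomal protein genes (48.0%) and interferon-stimulated genes (45.6%). In tested genes outside the TOP lists the median was -0.20 with and -0.21 without. Pabpc1 and Rpl32 have no entry in the table.

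The steps between low RPKM values put the Ribo-seq depth at 3470000 and 1980000 reads in the 4 h cultures A and B, against 1280000 and 2310000 in the 0 h cultures A and B (86.7% to 94.1% of low values were whole reads in each of the 10 libraries, within 0.06 of a read). The RNA-seq depth could not be resolved. The log2 TE of A and B differed with an SD over genes of 0.36 at 4 h, against 0.57 at 0 h. This spread was wider in footprints than in RNA. For RPFs the SD was 0.33 at 4 h, against 0.51 at 0 h, and for RNA it was 0.19 at 4 h, against 0.23 at 0 h. At 0 h 309 of the tested genes had a mean under 10 RPKM in at least 1 assay, and at 4 h 547 did, so their TE rests on low values there. All 14 macrophage markers were tested, and 0 of 12 neutrophil, 0 of 12 lymphocyte, 0 of 10 erythroid, 1 of 8 dendritic cell and 1 of 9 fibroblast markers were in the table, which holds only genes above 0 in all 20 libraries.

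No gene passed the test for TE. At an adjusted p under 0.05 (limma with Benjamini-Hochberg adjustment over all tested genes) 0 of 4621 genes (0.0%) were called, with a smallest adjusted p of 0.658, while 339 had an unadjusted p under 0.05, 78 of them higher at 4 h (1.69% of tested genes) and 261 lower (5.65%). The standard error of a difference had a median of 0.35. RNA and footprints themselves changed widely: RNA rose in 1131 genes (24.5%) and fell in 2366 (51.2%), and RPFs rose in 611 (13.2%) and fell in 1123 (24.3%). The count of RPFs that fell depended on single cultures: it was 507 without 4 h A, 568 without 4 h B, 567 without 0 h A and 696 without 0 h B. A difference of at least 1 in either direction was found for 1315 genes in RNA, 1750 in RPFs and 103 in TE. TE values of lists and genes are therefore given as measurements, with no call.

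Most TE differences were below 0. The median difference of all tested genes was -0.20, 71.3% were below 0, and the middle 90% ran from -0.75 to 0.51. Both 4 h cultures lay above both 0 h cultures in 433 genes (9.37%) and below both in 1776 (38.4%). When each culture was centred on its own median, the median difference was -0.02, and the counts, which were added after the results were seen, were 911 (19.7%) above and 1046 (22.6%) below. Counts of list members above and below are to be read against these shares. Lists are therefore set against the median of all genes. By RNA change the median TE difference was -0.38 in the 118 genes whose RNA was lower by over 2, -0.25 in the 544 lower by 1 to 2 and -0.21 in the 2386 lower by up to 1. It was -0.17 in the 920 higher by up to 1, -0.17 in the 325 higher by 1 to 2, -0.10 in the 238 higher by 2 to 4 and -0.14 in the 90 higher by over 4.

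**Figure D1:**
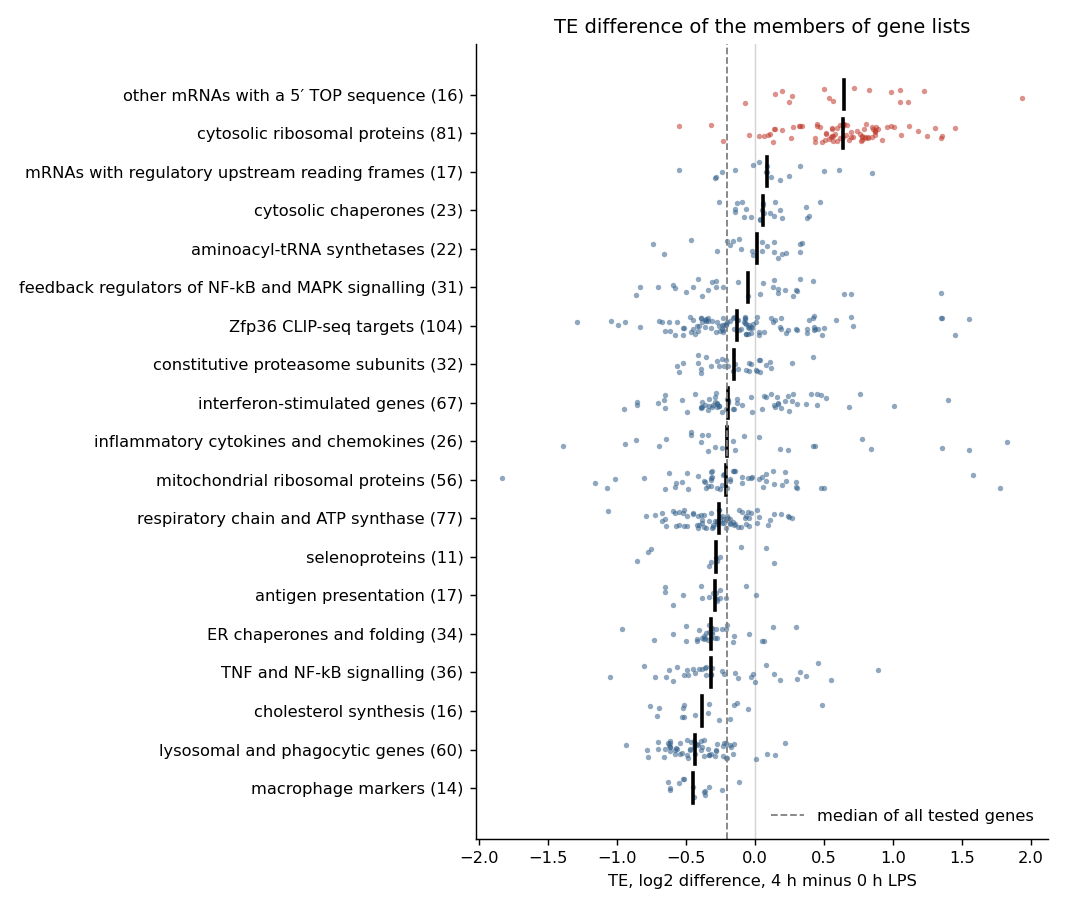
TE difference (log2, 4 h minus 0 h LPS, x axis) of each tested member of 19 gene lists (y axis, number of members in parentheses), with a black bar at the list median and a dashed line at the median of all tested genes (-0.20). The ribosomal protein and other TOP mRNAs (red) centre on 0.64 and 0.65, while the macrophage markers and the lysosomal and phagocytic genes centre on -0.44 and -0.43.

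Ribosomal protein genes had less RNA at 4 h, with footprints that mostly passed the test in neither direction. Of the 81 tested members of the list, RNA passed the test as lower in 72 and as higher in 0 (51.2% and 24.5% of all genes). RPFs passed as higher in 1, Rpl24, and as lower in 4, Rpl41, Rps26, Rps27l and Rps29 (13.2% and 24.3% of all genes). In the median culture values the RNA of the list was 253 and 254 RPKM at 4 h against 455 and 387 RPKM at 0 h, and the RPFs were 251 and 270 RPKM at 4 h against 283 and 271 RPKM at 0 h. The median difference was -0.74 for RNA, -0.09 for RPFs and 0.64 for TE.

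In 65 of the 81 ribosomal protein genes both 4 h cultures had a higher TE than both 0 h cultures (9.37% of all genes did), and in 1, Rpl7l1, both had a lower one. By unadjusted p under 0.05, 31 were higher and 0 lower, against 1.69% and 5.65% of all genes. With each culture centred the counts of members above and below were 68 and 1, against 19.7% and 22.6% of all genes. Leaving out any 1 of the 10 cultures kept the list's median between 0.48 and 0.76. These genes, like Eef1a1 and Tpt1, have many processed pseudogenes, and the authors' counting kept reads with an alignment quality of at least 10, so their levels are uncertain where reads fit several places. The part of this in the TE difference was not tested.

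Rpsa, which is the laminin receptor as well as a small-subunit protein, had TE ratios of 0.611 and 0.614 at 4 h, against 0.183 and 0.274 at 0 h. The RNA was 203 RPKM in each 4 h culture, against 475 and 359 RPKM at 0 h, while the RPFs were 124 RPKM in each 4 h culture, against 86.2 and 97.5 RPKM at 0 h. The TE difference was 1.45 ± 0.35 (SE, unadjusted p = 0.00256), the highest of the list, while the RNA fell (-1.02, adjusted p = 0.000107) and the RPF difference of 0.43 did not pass (adjusted p = 0.208).

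Rpl39, a small protein of the large subunit, had TE ratios of 4.89 and 4.91 at 4 h, against 2.65 and 2.72 at 0 h. Its RNA fell to 125 and 151 RPKM at 4 h, against 365 and 317 RPKM at 0 h, and the TE difference was 0.87 ± 0.20 (SE, unadjusted p = 0.00239). Rpl32 had TE ratios of 0.698 and 0.668 at 4 h, against 0.307 and 0.295 at 0 h. The RNA of Rpl32 fell by 1.18, with RPFs that overlapped (438 and 429 RPKM at 4 h, against 473 and 399 RPKM at 0 h). In these genes the 4 h and 0 h cultures did not overlap in TE, and the RNA passed the test while the RPFs did not.

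Rps6, the ribosomal protein that mTOR signalling phosphorylates through S6 kinase, had TE ratios of 0.604 and 0.566 at 4 h, against 0.393 and 0.289 at 0 h (difference 0.80 ± 0.33, SE). Not all members followed: Rpl41 had a TE difference of -0.32, Rps26 of -0.23 and Rpl7l1 of -0.55, of which Rpl41 was at 0.17 and Rps26 at 0.24 without 0 h culture B. Rpl7l1 is a paralog of the ribosomal protein Rpl7, and Rpl41 and Rps26 were among the 4 members whose RPFs fell.

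The other TOP mRNAs, mainly elongation and initiation factors, had a median TE difference of 0.65. Both 4 h cultures were above both 0 h cultures in 14 of 16 and below in 0 (9.37% and 38.4% of all genes). An unadjusted p under 0.05 was found for 8, all of them higher (1.69% of all genes). RNA was lower in 13 and higher in 0 (51.2% and 24.5% of all genes). RPFs were higher in 3, Pabpc1, Eef2 and Eef1a1, and lower in 0 (13.2% and 24.3% of all genes). In the ribosomal protein list RPFs rose in 1 of 81.

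Pabpc1, the cytoplasmic poly(A)-binding protein, which promotes initiation by linking the poly(A) tail to the cap complex, had the highest TE difference of the list. Its TE ratios were 1.15 and 0.997 at 4 h, against 0.218 and 0.358 at 0 h, a difference of 1.94 ± 0.40 (SE, unadjusted p = 0.000977, 3.84-fold). RPFs rose to 175 and 181 RPKM at 4 h, against 52.2 and 64.1 RPKM at 0 h (adjusted p = 0.00336), which is 1160 and 687 reads at 4 h against 128 and 283 reads at 0 h. The RNA was 152 and 182 RPKM at 4 h, against 243 and 181 RPKM at 0 h, a difference of -0.33 that did not pass (adjusted p = 0.0785). Mouse Pabpc1 lies at chr15:36595658-36609581 (GRCm38).

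Eef2, which moves the ribosome along the mRNA, had TE ratios of 1.31 and 1.21 at 4 h, against 0.583 and 0.638 at 0 h (1.05 ± 0.25, SE, unadjusted p = 0.00273). Its RPFs rose to 557 and 604 RPKM at 4 h, against 328 and 321 RPKM at 0 h (adjusted p = 0.00116), which is 4975 and 3085 reads at 4 h against 1083 and 1911 reads at 0 h. Eef1a1 had TE ratios of 0.706 and 0.868 at 4 h, against 0.328 and 0.339 at 0 h, and a difference of 1.23 ± 0.34 (SE). Tpt1, a small growth-related protein with a classical TOP mRNA, had TE ratios of 1.45 and 1.60 at 4 h, against 0.812 and 0.665 at 0 h. Rack1 had 1.19 and 1.23 at 4 h, against 0.558 and 0.665 at 0 h. Eef1d (-0.07) and Nap1l1 (0.15) were near 0, and Eef1d was the 1 member below it, but at 0.10 with each culture centred.

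**Figure D2:**
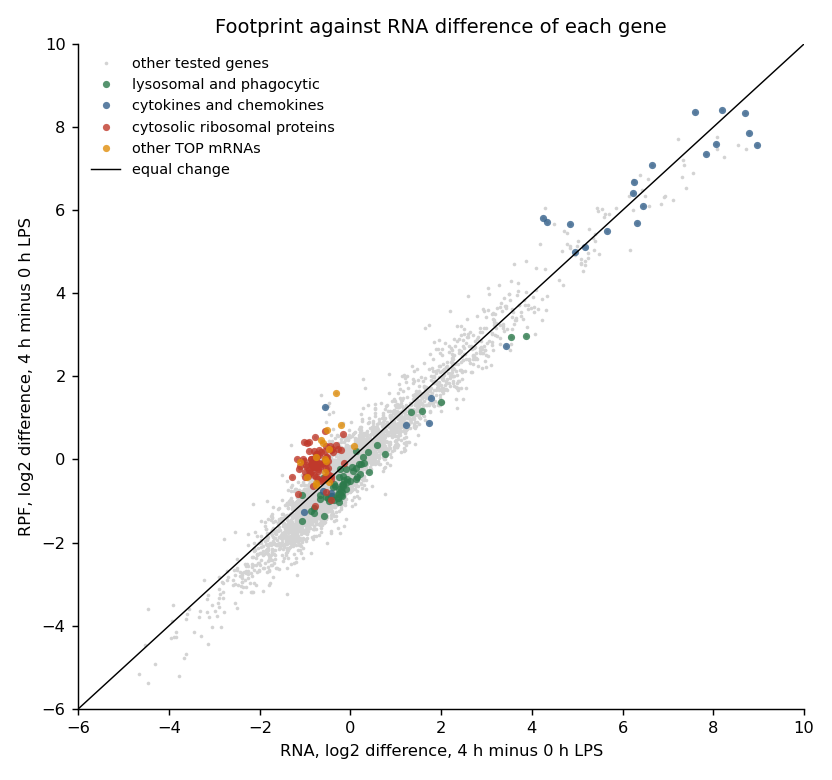
Difference in RPFs (log2, y axis) against difference in RNA (log2, x axis), both 4 h minus 0 h LPS, for each of the 4621 tested genes, with a line of equal change. Ribosomal protein mRNAs (red) lie mostly above the line, with a median RNA difference of -0.74 and RPF difference of -0.09, and lysosomal and phagocytic mRNAs (green) lie mostly below it, with medians of -0.18 and -0.59.

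Over the whole time course the TE of ribosomal protein mRNAs was lowest before LPS. The list's median TE ratio in cultures A and B was 0.609 and 0.749 before LPS. It was 0.894 and 0.839 after 1 h, then 1.01 and 1.22 after 2 h, then 0.987 and 1.02 after 4 h and last 0.878 and 0.954 after 6 h. For the other TOP mRNAs it was 1.03 and 0.917 before LPS. It was 1.41 and 1.23 after 1 h, then 1.34 and 1.58 after 2 h, then 1.45 and 1.52 after 4 h and last 1.32 and 1.49 after 6 h. All 8 LPS cultures lay above both 0 h cultures in both lists, while the median over all genes was 1.50 and 1.42 at 4 h, against 1.69 and 1.61 at 0 h. The levels at 1, 2 and 6 h are given as description only.

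**Figure D3:**
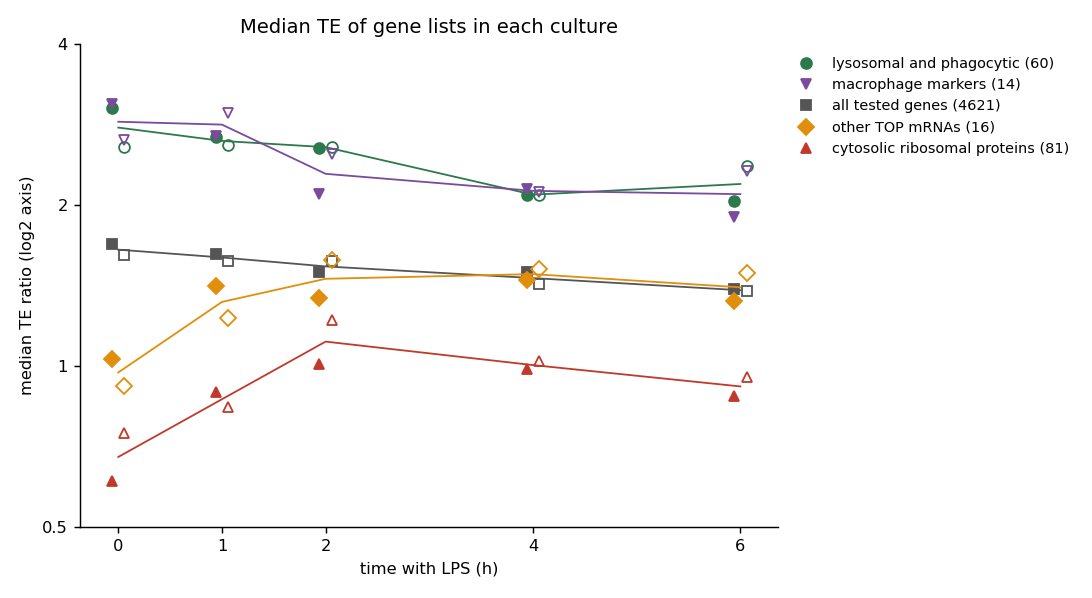
Median TE ratio (y axis, log2 scale) of gene lists in each culture by hours with LPS (x axis), with filled symbols for replicate A, open symbols for B, and lines through their geometric means. Ribosomal protein mRNAs (0.609 and 0.749) and other TOP mRNAs (1.03 and 0.917) are lowest at 0 h, while lysosomal and phagocytic genes stand at 2.09 in both 4 h cultures, against 3.03 and 2.57 at 0 h.

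Other genes of translation had medians nearer to that of all genes. The remaining translation factors (40 tested) had a median TE difference of -0.11, with 7 members above and 11 below, against 9.37% and 38.4% of all genes. With centring the median was 0.06, with 12 above and 6 below, against 19.7% and 22.6% of all genes. The members with the smallest p were Eif4a2, an RNA helicase of the cap complex, at 0.68 ± 0.36, and Eif4e, the cap-binding protein, at -0.60 ± 0.35 (SE). Aminoacyl-tRNA synthetases (22 tested), which charge tRNAs, had a median of 0.02, which is 0.22 above that of all genes. Of these 5 were above and 4 below, or 11 and 3 with centring, against the same shares of all genes. The 2 members with the smallest p were both below 0, Yars at -0.66 ± 0.32 and Farsa at -0.46 ± 0.32 (SE). The mitochondrial ribosomal proteins had a median of -0.21 over 56 members, close to that of all genes. Within them Mrpl1 had TE ratios of 1.66 and 1.76 at 4 h, against 0.482 and 0.517 at 0 h (1.78 ± 0.46, SE), and Mrpl46 had a difference of -1.16 ± 0.36 (SE). Ribosome biogenesis factors (33) had a median of -0.17, led by Imp4 at -0.41 ± 0.25 and Rrs1 at -0.79 ± 0.49 (SE).

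Lysosomal and phagocytic genes had TE differences mostly below the median of all genes. The median difference of the 60 tested members was -0.43, which is -0.23 against the median of all genes, and both 4 h cultures lay below both 0 h cultures in 47 of 60 (38.4% of all genes did) and above in 2. With each culture centred 32 members were below (22.6% of all genes) and 2 above. By unadjusted p under 0.05, 21 were lower and 0 higher, against 5.65% and 1.69% of all genes. RNA fell in 23 members and rose in 10, against 51.2% and 24.5% of all genes. RPFs fell in 31 and rose in 5, against 24.3% and 13.2% of all genes. The list's median TE ratio was 2.09 in each 4 h culture, against 3.03 and 2.57 at 0 h.

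Laptm5, a lysosomal membrane protein of blood cells, had TE ratios of 4.77 and 4.70 at 4 h, against 7.39 and 7.99 at 0 h, and RPFs of 1970 and 1900 RPKM at 4 h, against 3760 and 3370 RPKM at 0 h. The RPFs fell (-0.88, adjusted p = 0.000847), and the RNA difference of -0.18 did not pass (adjusted p = 0.201). Psap, the precursor of the saposins, had TE ratios of 2.72 and 2.64 at 4 h, against 4.37 and 3.85 at 0 h (-0.61 ± 0.18, SE, unadjusted p = 0.00781). Fcgr2b, the inhibitory IgG receptor, had the lowest difference of the list (-0.93), followed by Npc1 (-0.78), which exports cholesterol from lysosomes, and the tetraspanin Cd63 (-0.77). With 5 RPKM added Fcgr2b was at -0.68, above Npc1 and Cd63, which were each at -0.77. Of the members with a difference above 0, Scarb1, a lipoprotein receptor at the cell surface, had 0.22 ± 0.29 and Atp6v1h, a subunit of the proton pump, 0.09 ± 0.36 (SE).

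The 14 macrophage markers, which overlap the lysosomal list in Cd68, Fcgr1, Mrc1 and Lyz2, had a median TE difference of -0.44, and all 14 were below 0. Both 4 h cultures were below both 0 h cultures in 12 (38.4% of all genes were) and above in 0, and with centring below in 6 (22.6% of all genes) and above in 0. RPFs fell in 9 and rose in 3, against 24.3% and 13.2% of all genes. Cd68 had TE ratios of 3.72 and 3.93 at 4 h, against 6.01 and 5.65 at 0 h (-0.61 ± 0.20, SE), and its RPFs fell (-0.97, adjusted p = 0.000929). Csf1r, the receptor for the growth factor Csf1, had TE ratios of 1.89 and 1.80 at 4 h, against 2.78 and 2.52 at 0 h (-0.52 ± 0.19, SE). Fcgr1, an IgG receptor, had 1.55 and 1.58 at 4 h, against 2.64 and 2.17 at 0 h, although its RNA and RPFs rose (1.99 and 1.38).

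ER chaperones and folding factors (34 tested) had a median of -0.32, with 22 members below and 1 above, and Hspa5, the main chaperone of the ER, had a difference of -0.50 ± 0.24 (SE). Ssr3, of the translocon-associated complex, had -0.38 ± 0.18 (SE). Cholesterol synthesis genes (16) had a median of -0.39, with 9 below and 1 above, among them Sc5d (-0.76 ± 0.25, SE). Antigen presentation genes (17) had a median of -0.29, with 10 below and 0 above. The counts of these lists stand against 38.4% below and 9.37% above among all genes. Tapbp, which loads peptide onto MHC class I, had -0.65 ± 0.20, and B2m, the light chain of MHC class I, -0.52 ± 0.19 (SE), and their RNA rose by 2.02 and 0.57. With centring the medians of these lists were -0.15, -0.21 and -0.12, and the members below numbered 11, 7 and 6 (22.6% of all genes).

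Cytosolic chaperones (23 tested) had a median of 0.06, with 6 members above and 2 below, against 9.37% and 38.4% of all genes. With centring these were 16 and 0, against 19.7% and 22.6% of all genes. Hspa8 had 0.47 ± 0.26 and Hspd1, which works in mitochondria, 0.37 ± 0.24 (SE). Proteasome subunits (32) had a median of -0.15, with Psmd7 at -0.56 ± 0.23 and Psma6 at -0.39 ± 0.20 (SE). Respiratory chain and ATP synthase genes (77) had a median of -0.26, with 37 below (38.4% of all genes were) and 1 above. With centring the median was -0.09, with 20 below (22.6% of all genes) and 4 above. The smallest p were those of Atp5e at -0.72 ± 0.28 and Ndufv3 at -0.55 ± 0.22 (SE). The RNA of this list fell in 54 members and rose in 1, against 51.2% and 24.5% of all genes. Splicing factors (56) had a median of -0.07, which is 0.13 above that of all genes, with a range of -0.76 to 0.74. Of these 4 were above and 13 below, against 9.37% and 38.4% of all genes. With centring these were 17 and 5, against 19.7% and 22.6% of all genes. Snrpa, a splicing protein, had the lowest difference of the list, -0.76 ± 0.38 (SE).

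Inflammatory cytokines and chemokines rose in RNA and footprints alike, with TE differences of both signs. Of 46 listed 26 were tested. RNA rose in 22 and fell in 4 (24.5% and 51.2% of all genes). RPFs rose in 22 and fell in 3 (13.2% and 24.3% of all genes). The medians were 5.42 for RNA and 5.70 for RPFs. The median TE difference was -0.20, the same as that of all genes, with a range of -1.39 to 1.83. Of the members 5 were above and 11 below, against 9.37% and 38.4% of all genes. With centring these were 7 and 8, against 19.7% and 22.6% of all genes. With 5 RPKM added in place of 1 the list's median was 0.13.

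Il10, the cytokine that holds back macrophage activation, had the smallest TE p of all genes. The TE ratios were 2.77 and 2.78 at 4 h, against 0.770 and 1.16 at 0 h (1.55 ± 0.26, SE, unadjusted p = 0.000253, adjusted p = 0.658). The RNA was 202 and 199 RPKM at 4 h, against 7.88 and 11.7 RPKM at 0 h, and the RPFs were 563 and 555 RPKM at 4 h, against 5.84 and 13.8 RPKM at 0 h. At 0 h these are only 4 and 17 reads. RNA (4.25) and RPFs (5.80) both rose.

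Tnf, the early cytokine of the LPS response, had TE ratios of 1.79 and 1.74 at 4 h, against 1.14 and 0.413 at 0 h (1.36 ± 0.42, SE, unadjusted p = 0.0113). The 4 h cultures were close to each other and the 0 h cultures differed in RPFs, with 1960 and 2250 RPKM at 4 h, against 66.2 and 22.9 RPKM at 0 h, while the RNA was 1090 and 1290 RPKM at 4 h, against 58.1 and 56.9 RPKM at 0 h. The groups did not overlap. Csf1 had TE ratios of 3.04 and 2.42 at 4 h, against 1.37 and 1.68 at 0 h (0.84 ± 0.31, SE).

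Il12b, a subunit of IL-12 and IL-23, had a TE difference of 0.78 ± 0.21 (SE), but its values at 0 h were under 1 RPKM in both assays, and the plain ratio with nothing added was 2.38 and 2.17 at 4 h, against 1.89 and 2.49 at 0 h. Gdf15 had 1.83 ± 0.48 (SE) on RPFs of 4.73 and 8.82 RPKM at 4 h, against 0.852 and 4.25 RPKM at 0 h. At such levels the TE at 0 h turns on the RPKM added. Il6 had TE ratios of 2.88 and 2.92 at 4 h, against 4.38 and 7.05 at 0 h, a difference of -0.94 ± 0.85 (SE), and with 5 RPKM added the difference was 0.24.

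Cxcl10, a chemokine for T cells and a hallmark of interferon signalling, had the lowest p among genes with a lower TE. Its TE ratios were 3.16 and 2.57 at 4 h, against 5.65 and 9.83 at 0 h (-1.39 ± 0.27, SE, unadjusted p = 0.000716). The RNA rose to 8300 and 10100 RPKM at 4 h, against 22.3 and 13.4 RPKM at 0 h, and the RPFs to 26300 and 25900 RPKM at 4 h, against 131 and 140 RPKM at 0 h. Both rose, the RNA by more (8.96 against 7.58). Ccl7, a monocyte chemokine, had TE ratios of 3.47 and 3.33 at 4 h, against 6.39 and 4.37 at 0 h. Il1b had 1.78 and 1.67 at 4 h, against 1.47 and 3.24 at 0 h, values that overlapped. Ccl4 had 3.42 and 3.47 at 4 h, against 4.06 and 4.66 at 0 h, and Ccl3 had 4.36 and 4.06 at 4 h, against 4.13 and 3.34 at 0 h.

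**Figure D4:**
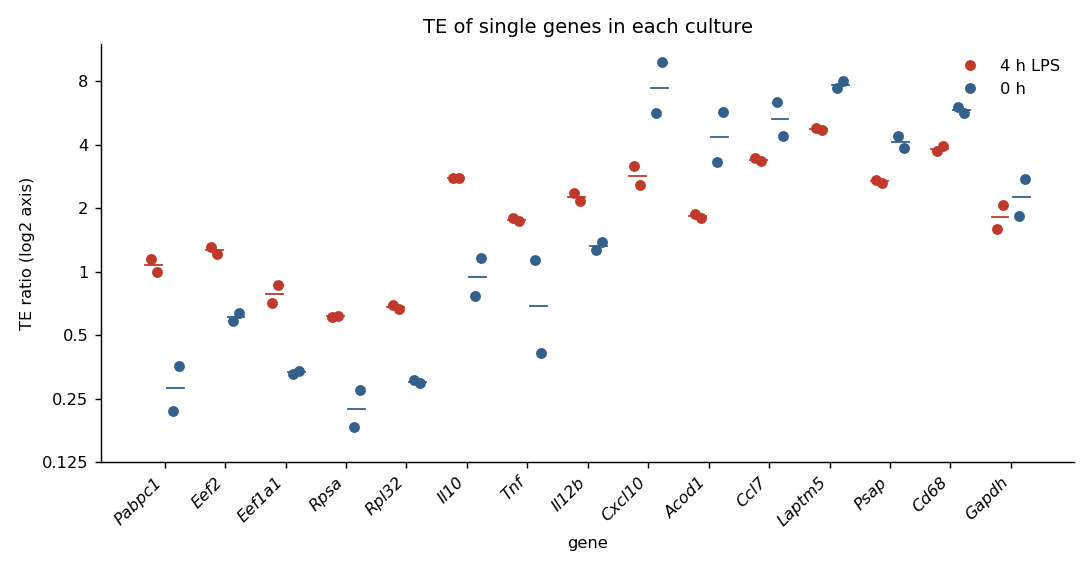
TE ratio (y axis, log2 scale) of 15 genes (x axis) in the 2 cultures at 4 h with LPS (red, left) and the 2 at 0 h (blue, right), with a line at each geometric mean. Pabpc1, Eef2, Eef1a1, Rpsa, Rpl32, Il10, Tnf and Il12b lie higher at 4 h, Cxcl10, Acod1, Ccl7, Laptm5, Psap and Cd68 lie lower, and Gapdh (1.59 and 2.07 at 4 h against 1.83 and 2.76 at 0 h) overlaps. The place of Il12b depends on the RPKM added, as its plain ratios with nothing added overlap.

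Interferon-stimulated genes (67 tested) had RNA that rose in all 67 and RPFs that rose in 64, against 24.5% and 13.2% of all genes. The median TE difference was -0.19. Both 4 h cultures were above in 13 and below in 25, against 9.37% and 38.4% of all genes. With centring they were above in 20 and below in 13, against 19.7% and 22.6% of all genes. With 5 RPKM added the list's median was 0.08. Ifit1, which binds viral RNA ends, had TE ratios of 2.25 and 2.01 at 4 h, against 3.35 and 4.42 at 0 h (-0.85 ± 0.23, SE). Ifi203, a member of a family of DNA sensors, had 1.39 and 1.23 at 4 h, against 0.653 and 0.639 at 0 h (1.01 ± 0.29, SE), on RPFs of 3.26 and 4.11 RPKM at 0 h. Acod1, which makes itaconate and belongs to no list, had TE ratios of 1.87 and 1.80 at 4 h, against 3.29 and 5.74 at 0 h (-1.25 ± 0.28, SE), with RNA of 2530 and 2650 RPKM at 4 h, against 7.51 and 3.47 RPKM at 0 h.

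Regulators of the response were mixed. Genes that feed back on NF-kB and MAPK signalling (31 tested) had a median of -0.05, with 4 above and 8 below, against 9.37% and 38.4% of all genes, and with centring a median of 0.12, with 7 above and 5 below. Zfp36 had TE ratios of 5.74 and 5.27 at 4 h, against 2.66 and 4.29 at 0 h (0.70 ± 0.28, SE), and Zc3h12c, a ribonuclease of the Regnase family, had 0.988 and 1.09 at 4 h, against 1.98 and 1.78 at 0 h (-0.86 ± 0.26, SE). Genes of TNF and NF-kB signalling (36) had a median of -0.32, with 4 above and 15 below, or 7 and 11 with centring. The shares of all genes with centring were 19.7% above and 22.6% below. Malt1, a protease that activates NF-kB, had 1.26 and 1.27 at 4 h, against 2.60 and 2.64 at 0 h (-1.05 ± 0.26, SE) while its RNA rose by 4.07, and Tnfrsf1b, a receptor for TNF, had -0.72 ± 0.23 (SE). Immediate early transcription factors (16) had a median of -0.13, with Fosl2 at -0.46 ± 0.24 and Egr2 at -0.91 ± 0.62 (SE).

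Groups with known translational control by other elements were small. mRNAs with regulatory upstream reading frames (17 tested) had a median of 0.09, which is 0.29 above that of all genes. Both 4 h cultures were above both 0 h cultures in 5 members and below in 2, against 9.37% and 38.4% of all genes. With centring these were 9 and 1, against 19.7% and 22.6% of all genes. The smallest p were those of Cebpa at 0.85 ± 0.34 and Mdm2 at 0.50 ± 0.30 (SE). Cebpa's RNA fell by 4.46 to 0.631 and 0.630 RPKM at 4 h, so its TE at 4 h rests on little. The integrated stress and amino acid response (14) had a median of -0.11, with Slc3a2 at -0.44 ± 0.18 and Slc7a11, a cystine carrier whose RNA rose by 3.06, at 0.92 ± 0.45 (SE). Slc7a11 had only 5 and 2 footprint reads at 0 h. Its plain ratios with nothing added overlapped, with 2.46 and 2.2 at 4 h, against 2.78 and 0.528 at 0 h. Selenoproteins (11), which need UGA read as selenocysteine, had a median of -0.28, with Msrb1 at -0.77 ± 0.26 and Selenos at -0.85 ± 0.42 (SE). Of 5 mRNAs with iron-responsive elements, Ftl1, the ferritin light chain, had TE ratios of 0.0317 and 0.0333 at 4 h, against 0.0109 and 0.0300 at 0 h.

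Other lists had medians between -0.23 and -0.03. Glycolysis and glucose uptake genes (19) had a median of -0.21, with 2 members above and 8 below, against 9.37% and 38.4% of all genes. With centring these were 5 and 2, against 19.7% and 22.6% of all genes. Pfkfb3, which drives glycolysis in activated cells, had the highest difference of the list (1.18 ± 0.33, SE). Its TE ratios were 2.49 and 2.21 at 4 h, against 0.990 and 1.08 at 0 h, with RNA that rose by 4.49, while Tpi1 had -0.33 ± 0.22 (SE). In the mRNA decay list (29, median -0.03) the decapping enzyme Dcp2 had 1.50 ± 0.57, with 5 and 33 reads at 0 h, and Exosc1 had -0.99 ± 0.68 (SE). Replication and cell cycle genes (33, median -0.04) had RNA that fell in 30 and RPFs that fell in 20, against 51.2% and 24.3% of all genes. Among them Ccnd1 had -0.55 ± 0.19 and Ccnd2 0.62 ± 0.38 (SE). Actin and motility genes (46, median -0.23) had Rac1 at -0.60 ± 0.26 and Vim at 0.45 ± 0.19 (SE).

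Several of the 10 genes with the smallest p on each side belong to no list. Rab20, a Rab GTPase, had TE ratios of 1.49 and 0.983 at 4 h, against 0.361 and 0.499 at 0 h (1.51 ± 0.33, SE), on 4 and 8 reads at 0 h. Flot1, a membrane scaffold protein, had 1.40 and 1.38 at 4 h, against 0.677 and 0.293 at 0 h, on 11 and 9 reads. Tbc1d23 had 1.12 and 1.11 at 4 h, against 0.419 and 0.431 at 0 h, and Nt5c3, a nucleotidase, had 2.71 and 2.88 at 4 h, against 1.13 and 1.48 at 0 h. On the lower side Lman1, a cargo receptor from the ER to the Golgi, had 1.78 and 1.79 at 4 h, against 3.27 and 3.04 at 0 h (-0.82 ± 0.19, SE) on 231 and 413 reads at 0 h. Ptpre, a tyrosine phosphatase, had a difference of -0.98 ± 0.22 (SE), and Pmp22, a membrane protein known from myelin, had 4.99 and 4.06 at 4 h, against 7.82 and 7.90 at 0 h. Tmem261 had -1.34 ± 0.28, Prr13 -1.16 ± 0.26, Rps19bp1 -0.95 ± 0.24 and Agpat4, an enzyme of phospholipid synthesis, -0.95 ± 0.24 (SE). In Ptpre, Prr13, Lman1 and Pmp22 the RNA did not pass the test and the RPFs fell.

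Targets of Zfp36 were compared because the deposited data hold its binding sites. The study's CLIP-seq at 4 h, with Zfp36 carrying a V5 tag, listed 280 peaks, 1 for each of 280 mRNAs, of which 133 were in the TE table and 104 were tested. Of 273 peaks on a RefSeq gene of the same name, 23 (8.42%) held TATTTATT on the transcribed strand, and of the 257 peaks of 50 bases 17 did (6.61%). The motif is shown in capitals in windows of 30 bases (mm10) from 4 of these peaks. The TE difference was 1.36 for Tnf and -0.41 for Nfkbia, while those of Il6 and Cpeb4 changed sign between settings.
Tnf, chr17:35199688-35199717, minus strand: tttgcacttatTATTTATTatttatttatt
Il6, chr5:30019721-30019750, plus strand: aagttaatttatgattgaTATTTATTattt
Nfkbia, an inhibitor of NF-kB, chr12:55489607-55489636, minus strand: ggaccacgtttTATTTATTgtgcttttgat
Cpeb4, a regulator of poly(A) tails, chr11:31935371-31935400, plus strand: ggaggttgtagTATTTATTctagcatttta
The Tnf peak spans 1000 bases with 6 matches, and the 50-base peak of Il10 at chr1:131024801-131024850, with a CLIP fold over input of 31.95, holds 0.

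The 104 tested Zfp36 targets had a median TE difference of -0.13, which is 0.07 above that of all genes, with 13 members above and 41 below, and 5 higher and 5 lower by unadjusted p under 0.05. These counts stand against 9.37% above, 38.4% below, 1.69% higher and 5.65% lower among all genes. With centring 22 members were above and 24 below (19.7% and 22.6% of all genes). The RNA of the targets rose in 57 and fell in 28, against 24.5% and 51.2% of all genes. The median was -0.10 in the 22 targets whose peak held TATTTATT and -0.12 in 80 without it. Il10 (1.55), Rpsa (1.45), Tnf (1.36) and Zfp36 itself (0.70) were on the higher side, and Pparg (-1.29), Pld3 (-0.61), Id2 (-0.56) and Csf1r (-0.52) on the lower. The size of the Pparg difference depended on the RPKM added, at -1.72 with 0.1 and -0.69 with 5. Nfkbia had -0.41 ± 0.20 and Cpeb4 -0.03 ± 0.27 (SE).

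Of other genes named by the study, Gapdh, a glycolytic enzyme, had a TE difference of -0.31 ± 0.30 and Pcbp2, a poly(C)-binding protein, 0.33 ± 0.24 (SE). Its relative Pcbp1 had TE ratios of 6.44 and 6.34 at 4 h, against 6.69 and 6.12 at 0 h, which overlapped. The 95% interval of the Gapdh difference ran from -0.99 to 0.37.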

How the data were processed

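Ribo-seq and RNA-seq libraries of 10 cultures (5 time points, A and B) were used. The authors trimmed reads, removed ribosomal, transfer and mitochondrial RNA, aligned the rest with TopHat to mm10, counted reads in coding sequences with HTSeq and deposited RPKM values. The RNA-seq was of ribosome-depleted total RNA. The CLIP-seq peak table was deposited with a fold ratio over input per peak. The authors' columns of changes and p-values between time points were not used.

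TE was log2((RPF RPKM + 1)/(RNA RPKM + 1)) per culture. It was tested with limma 3.58.1 (R 4.3.3), with a mean-variance trend and all 10 cultures sharing 1 estimate of the spread (5 residual degrees of freedom), and p-values were adjusted by Benjamini-Hochberg over 4621 genes. RPF and RNA were tested likewise. Only the limma step was run on simulated data, TE values with known changes, and not the RPKM filter, the added RPKM or the depth estimate. Genes were named by rule: the 10 smallest p in each direction, the 2 members of each list with the smallest p, and genes the study names. Further members were named after their values were seen. Some genes that the rule picks are not reported here. The members and the 33 lists were chosen with earlier results of these data known. Sequences came from RefSeq (GRCm38.p6).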

Additional observations from a re-analysis of the deposited data

How the results depend on the processing

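TE called 0 genes in each direction under all 21 other settings, with a smallest adjusted p by limma between 0.0797 (1 model over both assays) and 0.999 (without 4 h replicate B). The number of genes at an unadjusted p under 0.05 was 339 as reported, 98 and 139 when the 4 h replicate B or A was left out, 608 with only the 4 h and 0 h cultures and 633 with library weights. The median TE difference of all genes was -0.024 with each culture centred and between -0.239 and -0.147 with 1 culture left out. Of 610 list medians under other settings 44 moved by more than the spread between replicates, 22 of them with centring. Centring also gave 911 genes with both 4 h cultures above and 1046 below, and 742 genes with lower RPFs. Using only the 4 h and 0 h cultures gave 1898 with lower RPFs. With 1 culture left out, lower RPFs ranged from 507 to 1413 genes, higher RPFs from 428 to 696, higher RNA from 1019 to 1172 and lower RNA from 2006 to 2396.

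The TE difference changed sign for Il6 (0.24) and Pcbp1 (0.01) with 5 RPKM added, and for Cpeb4 (0.14), Pcbp1 (0.17) and Eef1d (0.10) with centring. With 1 culture left out the difference ran from -0.07 to 0.06 for Pcbp1, -0.09 to 0.03 for Cpeb4, -0.91 to 0.23 for Il1b, -2.01 to 0.20 for Egr2, -0.26 to 0.11 for Eef1d, -0.82 to 0.17 for Rpl41 and -0.71 to 0.24 for Rps26. The cause was not tested.

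With a replicate block TE called 0 genes (smallest adjusted p 0.651, 346 genes at an unadjusted p under 0.05), RPFs were higher in 599 and lower in 1074 genes, and RNA was higher in 1168 and lower in 2469. Deviations of cultures with the same letter correlated across genes at 0.0184 to 0.0846 for TE, -0.0257 to 0.0364 for RPFs and 0.0984 to 0.548 for RNA, with 0 of 10 pairs over 0.1 for TE and RPFs and 9 of 10 for RNA (median 0.378). The letters were not taken to pair the cultures for TE and RPFs, while RNA of the same letter mostly deviated together, with the 4 h and 0 h pair at 0.0984. Footprint depth limits the TE of genes with few reads at 0 h, and the RNA-seq depth was not resolved.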
